A study of Mus musculus with 25 samples.

Results

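Otp, Sim1, Sim2 and Arnt2 encode transcription factors of the developing hypothalamus, and their transcript levels were followed in the mammillary neuroepithelium of Lhx5 mutant and wild-type mouse embryos. They are 4 of the 18820 genes that carried a transcript cluster with a single gene symbol, and each was measured by 1 such cluster, the unit in which the array reports a gene. The genes were chosen by name, as regulators of the neuroendocrine and mammillary hypothalamus, with earlier results of these data known. Otp is among the genes that the paper reporting these arrays lists as lower in the mutant. Total RNA was taken from the mammillary neuroepithelium of C57BL/6 embryos at E10.5 (E for embryonic day) and hybridised to Affymetrix Mouse Gene 1.1 ST arrays, with 1 array per sample. The group labelled KO (13 arrays) came from embryos with the Lhx5 fl/fl genotype, in which the floxed allele is carried on both chromosomes, has not been recombined by Cre and acts as a hypomorph, so that the gene is present and not deleted. The group labelled WT (12 arrays) carried the wild-type alleles. The samples are labelled biological replicates, and nothing in the sources used here says whether embryos were pooled or shared a litter, so the p-values measure the spread between these samples.

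The neuroendocrine hypothalamus releases its peptides from parvocellular and magnocellular neurons of the paraventricular, supraoptic and anterior periventricular nuclei. OTP, a homeodomain protein, and the heterodimer of SIM1 with ARNT2, which are basic helix-loop-helix proteins with a PAS domain (bHLH-PAS), are needed for these neurons to form, and POU3F2 acts after them. SIM2 is the near relative of SIM1 and also pairs with ARNT proteins. Otp, Sim1 and Sim2 are expressed in the mammillary region too, where SIM1 and SIM2 act on the neurons whose axons form the mammillary tract. LHX5, the LIM-homeodomain factor altered in the mutant, is made in the same caudal hypothalamic wall.

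The sequence around a start site is shown because LHX5 and OTP are homeodomain proteins, which read short AT-rich words, whereas SIM and ARNT proteins read the word ACGTG. The RefSeq table (GRCm38.p6) gave 3 of the 4 promoters, those of Otp, Sim1 and Arnt2. Each runs from 250 bases before the start site used in that table to 50 after it. For Otp this site is the start of the gene span given below. For Sim1 and Arnt2 the whole window lies inside the gene span given below, so it is not at the outer end of the gene. In the sequences, given 5′ to 3′ on the strand of the gene, capitals mark the homeodomain core TAAT on either strand (TAAT or ATTA). They lie at chr13:94875386-94875685 (plus strand) for Otp, chr10:50895401-50895700 (plus strand) for Sim1 and chr7:84409989-84410288 (minus strand) for Arnt2.
Otp: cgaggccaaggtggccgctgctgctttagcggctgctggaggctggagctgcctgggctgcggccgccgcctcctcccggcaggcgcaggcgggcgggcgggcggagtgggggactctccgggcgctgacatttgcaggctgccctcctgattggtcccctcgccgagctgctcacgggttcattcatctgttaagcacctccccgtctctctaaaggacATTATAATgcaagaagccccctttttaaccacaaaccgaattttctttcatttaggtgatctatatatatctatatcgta
Sim1: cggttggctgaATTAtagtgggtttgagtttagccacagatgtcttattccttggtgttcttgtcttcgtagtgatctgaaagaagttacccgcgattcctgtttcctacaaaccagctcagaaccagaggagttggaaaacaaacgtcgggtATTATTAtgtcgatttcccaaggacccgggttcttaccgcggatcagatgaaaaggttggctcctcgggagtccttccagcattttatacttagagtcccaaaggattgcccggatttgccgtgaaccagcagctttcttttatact
Arnt2: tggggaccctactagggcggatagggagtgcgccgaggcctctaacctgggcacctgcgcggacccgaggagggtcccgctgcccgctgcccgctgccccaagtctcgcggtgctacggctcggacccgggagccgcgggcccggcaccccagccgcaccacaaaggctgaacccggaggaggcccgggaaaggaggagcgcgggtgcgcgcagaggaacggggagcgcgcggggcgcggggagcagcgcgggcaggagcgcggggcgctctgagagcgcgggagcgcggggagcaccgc
The core occurred at 2 adjacent places in the Otp window, which share no base, at 3 in that of Sim1 (2 of them overlapping) and at 0 in that of Arnt2, and 58% of the 32851 promoters of the table hold it at least once. The longer homeodomain word TAATTA (5.29% of promoters) and the word ACGTG (19.6%, with CACGT on the other strand) had 0 matches in all 3 windows, as had the palindrome CACGTG (7.15%), which contains ACGTG. The Arnt2 window was 76.7% G and C, a higher share than in 97.3% of promoters, against 58.7% in Otp and 46% in Sim1. A match describes these letters only.

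Values are log2 RMA levels, so a difference of 1 is a 2-fold change. Array medians lay between 4.644 and 4.761 and correlations between arrays between 0.9855 and 0.9966. The KO arrays came as 2 sets. Over 35542 probe sets the mean of KO replicates 1 to 10 equalled that of KO replicates 11 to 13 (median absolute difference of 1.33e-06), so a difference between KO and WT has the size of that between KO replicates 11 to 13 (n = 3) and WT (n = 12). These arrays are called the 15-array set here. Nothing in the sources used here says whether they were processed together. KO replicates 1 to 10 serve for the spread and for relations within a set. Differences were fitted with a term for KO replicates 1 to 10, and with genotype as the only term for comparison. In the latter fit KO replicates 1 to 10 count as further samples, although their mean equals that of KO replicates 11 to 13. Its SEs, intervals and p-values are therefore too small. Of 28940 clusters, 7 (0.0242%) passed at an adjusted p below 0.05 with that term and 10.3% had an unadjusted p below 0.05. Markers of the caudal hypothalamus were present, with Nkx2-1 at 7.82 ± 0.39 (SD, n = 12), Foxb1 at 6.73 ± 0.24 and Lhx5 at 7.97 ± 0.22 in WT, while 5 hindbrain and spinal cord genes averaged 3.09 to 3.51 on the WT arrays. In WT, 2 arrays stood apart. WT replicate 10 had the lowest level of prethalamus markers (4.97, against a WT median of 7.26) and the highest of floor plate markers (8.39, against 7.46), and WT replicate 11 the lowest of young neuron markers (7.71, against 8.67). The differences of the 4 genes, the pairs of genes, the SDs in WT and the WT correlations of Otp with Olig2 and prethalamic genes, Sim1 with Foxb1 and Sim2 with Arnt2 and Tbx3 are given with and without them. Other values use all WT arrays unless stated.

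Otp, at chr13:94875636-94885125, had the largest difference of the 4 genes, with a lower mean in KO. In WT, Otp ranged from 4.995 (replicate 10) over a median of 6.50 to 7.61 (replicate 4), with replicate 11 at 5.26 and the other 10 arrays at 6.19 or above. KO replicates 11, 12 and 13 stood at 6.26, 4.87 and 4.58. KO replicates 12 and 13 lay below every WT array and KO replicate 11 lay inside the WT range. Such a result, with at least 2 of 3 KO arrays below all of WT, was found for 3.94% of clusters.

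**Figure D1:**
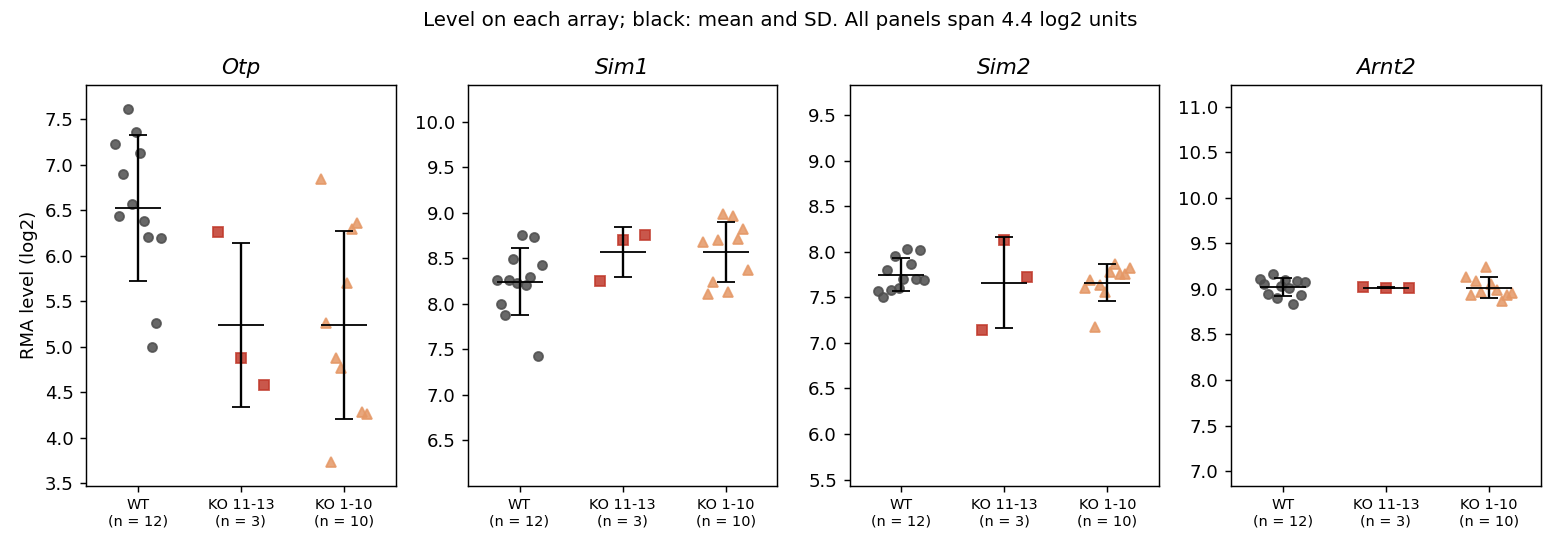
Log2 RMA level (y axis) of Otp, Sim1, Sim2 and Arnt2 on each array, for WT (n = 12), KO replicates 11 to 13 (n = 3) and KO replicates 1 to 10 (n = 10); each point is 1 array, the black line the mean and its whiskers the SD, and all panels span the same length of axis. Otp means are 6.52 in WT and 5.24 in both KO sets, which coincide by construction, whereas Arnt2 lies between 8.84 and 9.24 on every array.

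The mean of Otp was 6.52 ± 0.80 (SD, n = 12) in WT and 5.24 ± 0.90 (n = 3) in KO replicates 11 to 13. The difference of -1.28 ± 0.55 (SE), or 2.43-fold lower in KO, had a 95% interval from -2.40 to -0.16 and did not pass the adjustment over all clusters (limma with the term, p = 0.0267, adjusted p = 0.404). Otp was among the 4.15% of clusters with an unadjusted p below 0.05 and a lower level in KO. By size it was the sixth most negative difference, with 5 clusters below it, and its standard error was larger than that of 99.7% of clusters. With genotype as the only term the same difference passed (limma, adjusted p = 0.00970), as did 6.99% of all clusters in that direction and 16.7% in either. That fit had the same estimate with an SE of 0.33, which is too small, since it counts KO replicates 1 to 10 as further samples. The exact permutation test over the 455 splits of the 15-array set gave p = 0.0220, where the smallest p it allows is 0.0022. Without KO replicate 12 the difference was -1.10 (exact p = 0.0989), without KO replicate 13 it was -0.95 (exact p = 0.132), and without WT replicates 10 and 11 it was -1.56 (exact p = 0.0105). Those 2 WT arrays had the lowest Otp of WT, so leaving them out had to make the difference more negative. In RNA of a whole tissue piece, fewer cells that make Otp and less Otp RNA per cell cannot be told apart.

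**Figure D2:**
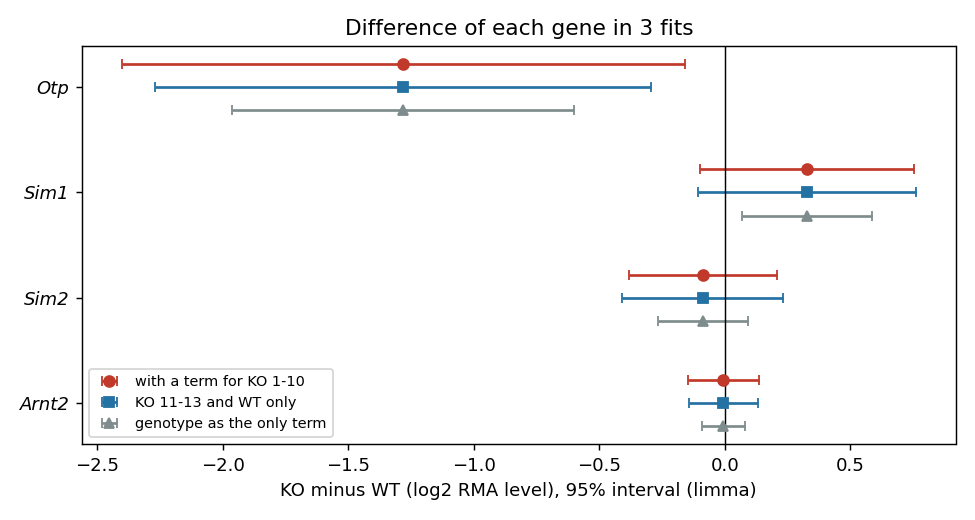
Difference between KO and WT (x axis, log2 RMA level) for the 4 genes, with 95% intervals from limma, in 3 fits: with a term for KO replicates 1 to 10, on KO replicates 11 to 13 and WT only, and with genotype as the only term. The interval of Otp lies below 0 in all 3, from -2.40 to -0.16 with the term, that of Sim1 clears 0 with genotype as the only term, and those of Sim2 and Arnt2 span 0 in each. Intervals with genotype as the only term are too narrow, since KO replicates 1 to 10 count there as further samples.

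Otp was also one of the most variable genes within a genotype. Among KO replicates 1 to 10 it ran from 3.73 (replicate 3) over a median of 5.07 to 6.84 (replicate 1), a range of 8.62-fold, and in WT the range was 6.14-fold. Its SD exceeded that of 99.6% of clusters in WT (114 were higher) and that of 99.7% in KO replicates 1 to 10 (78 were higher), against a median cluster SD of 0.143 and 0.149. WT replicates 10 and 11 hold much of the WT spread, since without them the range was 2.68-fold and the SD 0.51 instead of 0.80, above 98.8% of clusters over the same 10 arrays (354 were higher). The mean absolute deviation from the set median was 0.854 in KO replicates 1 to 10 and 0.610 in WT, a difference that did not pass (permutation p = 0.273, adjusted p = 0.871 over the 4 genes).

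Otp was higher on arrays with higher levels of prethalamic markers, and it also moved with other marker lists. The prethalamus lies next to the hypothalamus and is marked by the homeobox genes Dlx1, Dlx2 and Gsx2. Across arrays, Pearson's r between Otp and the mean of these 3 genes was 0.71 in WT (n = 12) and 0.89 in KO replicates 1 to 10 (n = 10), given as a description since all genes of an array share its piece of tissue. Without WT replicate 10, which is low in both, r in WT was 0.48, and without WT replicates 10 and 11 it was 0.80. The mean of the 3 genes ran from 4.97 to 7.96 in WT, stood at 6.28, 5.62 and 5.19 in KO replicates 11, 12 and 13, and ran from 4.67 to 6.50 in KO replicates 1 to 10. KO replicate 11 thus had the highest level of both Otp and the prethalamic genes among KO replicates 11 to 13, and KO replicate 13 the lowest of both. All 3 markers were lower in KO, by -1.69 ± 0.56 (Dlx1), -1.18 ± 0.43 (Dlx2) and -0.97 ± 0.37 (Gsx2), with unadjusted limma p of 0.0060, 0.0100 and 0.0145. None passed the adjustment (limma, adjusted p = 0.274, 0.307 and 0.334), and 4.15% of all clusters were lower at an unadjusted p below 0.05. Among the other lists, r between Otp and 5 neural progenitor genes was 0.74 in WT (0.66 without WT replicates 10 and 11) and 0.50 in KO replicates 1 to 10. For both the telencephalon and the eye genes r was 0.75 in KO replicates 1 to 10, against 0.29 and 0.26 in WT, and for the somite and muscle genes it was 0.70 in WT (0.29 without WT replicates 10 and 11) and -0.67 in KO replicates 1 to 10. The part of prethalamic or other tissue in the Otp difference was not tested.

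Olig2, a bHLH gene of ventral progenitors, was related to Otp in the same direction in both sets. Pearson's r was 0.66 in WT (permutation p = 0.0141, Spearman's rho 0.62, permutation p = 0.0355) and 0.71 in KO replicates 1 to 10 (p = 0.0241, rho 0.76, p = 0.0154), and neither passed the adjustment over the 52 relations computed (adjusted p = 0.184 and 0.250). Without the 2 arrays farthest from the Otp median, r was 0.62 and 0.71. Olig2 itself was lower in KO by -1.02 ± 0.40 (limma, p = 0.0166, adjusted p = 0.350), with KO replicates 11 to 13 between 5.78 and 6.29 and the WT arrays between 4.79 (replicate 10) and 7.56. Between Otp and Lhx5, r was -0.04 in WT and 0.61 in KO replicates 1 to 10 (permutation p = 0.0628, adjusted p = 0.408). The RNA level of Lhx5 itself differed between KO and WT by -0.04 ± 0.17 (SE, limma, p = 0.799, adjusted p = 0.960).

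**Figure D3:**
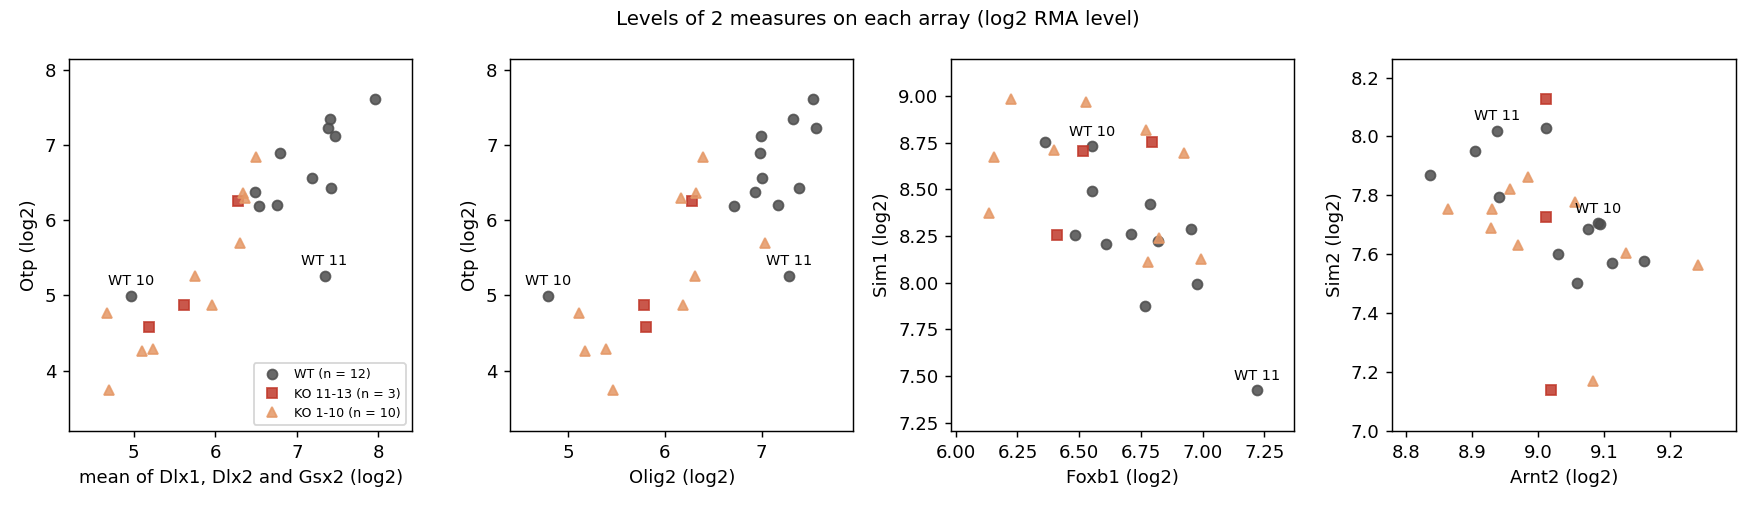
Levels of 2 measures on each array (both axes log2 RMA level): Otp against the mean of the prethalamic genes Dlx1, Dlx2 and Gsx2, Otp against Olig2, Sim1 against Foxb1, and Sim2 against Arnt2, for WT, KO replicates 11 to 13 and KO replicates 1 to 10. WT replicates 10 and 11 are named; Otp follows the prethalamic mean within each set (r = 0.71 in WT and 0.89 in KO replicates 1 to 10), and WT replicate 11 lies apart in the panel of Sim1 and Foxb1.

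Sim1, at chr10:50894698-50989156, was on average higher in KO, but not beyond the spread between arrays. The WT arrays ranged from 7.42 (replicate 11) over a median of 8.26 to 8.75, and KO replicates 11, 12 and 13 stood at 8.26, 8.70 and 8.75. The last of these reached the top of the WT range and KO replicate 11 lay at the WT median. Means were 8.24 ± 0.36 (SD, n = 12) and 8.57 ± 0.27 (n = 3). The difference of 0.33 ± 0.21 (SE, 1.25-fold) had a 95% interval from -0.10 to 0.75 (limma, p = 0.128, adjusted p = 0.619). In the 15-array set the exact permutation p was 0.191, and 0.108 without WT replicates 10 and 11 (difference 0.29). With genotype as the only term Sim1 did not pass either (limma, adjusted p = 0.0745). KO replicates 1 to 10 ran from 8.11 to 8.98.

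Within WT, Sim1 was high where Foxb1, a forkhead gene of the mammillary body, was low. Pearson's r was -0.80 (permutation p = 0.00183, adjusted p = 0.0952, the lowest of the 52) and Spearman's rho -0.64 (permutation p = 0.0302). The relation rests partly on WT replicate 11, which had the lowest Sim1 and the highest Foxb1 (7.22), since r was -0.50 (permutation p = 0.144) without the 2 arrays farthest from the Sim1 median and -0.63 without WT replicates 10 and 11. In KO replicates 1 to 10, r was -0.42. Sim1 was also high where 3 young neuron genes (Stmn2, Dcx and Elavl4) were high, with r of 0.80 in WT, 0.61 there without WT replicates 10 and 11, and 0.58 in KO replicates 1 to 10, as a description. The mean of these 3 genes ran from 7.71 to 9.44 in WT and from 8.37 to 8.67 in KO replicates 11 to 13.

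Sim2, at chr16:94085104-94127032, had means that lay closer together than the SE of their difference, but KO replicates 11 to 13 were widely apart. WT ranged from 7.504 over a median of 7.70 to 8.03, and KO replicates 11, 12 and 13 stood at 7.14, 8.13 and 7.73. KO replicate 11 lay below every WT array, KO replicate 12 above every WT array and KO replicate 13 between them. The mean was 7.75 ± 0.18 (SD, n = 12) in WT and 7.66 ± 0.50 (n = 3) in KO. The difference of -0.09 ± 0.14 (SE) had a 95% interval from -0.38 to 0.21 (limma, adjusted p = 0.879) and an exact permutation p of 0.598. It turned to 0.17 without KO replicate 11 (exact permutation p = 0.231), which also had the highest Otp of these 3 arrays. Without KO replicate 12 it was -0.32 (95% interval from -0.63 to -0.01, limma, unadjusted p = 0.0434, adjusted p = 0.498; exact permutation p = 0.121), and without WT replicates 10 and 11 it was -0.07 (exact p = 0.727).

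Arnt2, at chr7:84246274-84411741, the general partner of SIM1, was the steadiest of the 4. It ran from 8.84 to 9.16 in WT (median 9.04) and stood at 9.02, 9.01 and 9.01 in KO replicates 11 to 13, all inside the WT range. The difference of -0.0060 ± 0.068 (SE) had a 95% interval from -0.15 to 0.13 (limma, adjusted p = 0.986), so that a change by more than 0.15 in either direction lies outside it. Without WT replicates 10 and 11 the difference was -0.0073 (exact permutation p = 0.909). In KO replicates 1 to 10 the range was 8.86 to 9.24. Its SD was below that of most clusters, exceeding 18.1% of them in WT and 25.7% in KO replicates 1 to 10.

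Sim2 and Arnt2 had negative correlations in both sets. In WT, Pearson's r was -0.70 (permutation p = 0.0123, adjusted p = 0.184) with Spearman's rho of -0.71 (permutation p = 0.0134), r was -0.80 without the 2 arrays farthest from the Sim2 median, and it was -0.68 without WT replicates 10 and 11. In KO replicates 1 to 10, r was -0.48 (permutation p = 0.162, rho -0.47). Sim2 was positively related to Tbx3, a T-box gene of the tuberal and mammillary hypothalamus, in WT (r = 0.71, permutation p = 0.00976, adjusted p = 0.184; 0.51 without the 2 farthest arrays and 0.64 without WT replicates 10 and 11) and r was 0.18 in KO replicates 1 to 10; the difference between these was not tested. The relation of Otp to Sim1 was weak in both sets (r = 0.14 and 0.24), and that of Otp to Sim2 had opposite signs (-0.47 in WT, permutation p = 0.124, and 0.45 in KO replicates 1 to 10, permutation p = 0.190). Of the 52 relations, 26 in each set, 7 had an unadjusted permutation p below 0.05 and 0 passed the adjustment.

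Whether the 4 genes differed between genotypes by unequal amounts was tested on the difference of 2 genes within each array, for the 6 pairs. Otp was lower relative to Sim1 by -1.61 in KO (exact permutation p = 0.0154, adjusted p = 0.0593), relative to Arnt2 by -1.28 (exact p = 0.0198, adjusted p = 0.0593) and relative to Sim2 by -1.19 (exact p = 0.0879, adjusted p = 0.176). In each of these 3 pairs KO replicates 12 and 13 lay below every WT array. The pairs without Otp had adjusted p of 0.203 to 0.675, with differences of 0.42 (Sim1 over Sim2), 0.33 (Sim1 over Arnt2) and -0.08 (Sim2 over Arnt2). No pair passed after adjustment with all arrays, but the pairs with Otp turned on single arrays. Without KO replicate 11 all 3 passed (exact permutation test, adjusted p = 0.0220), with differences of -2.28, -1.78 and -1.97 against Sim1, Arnt2 and Sim2. Without KO replicate 12 the 3 differences were -1.36, -1.09 and -0.78 (exact permutation test, adjusted p = 0.231, 0.231 and 0.363), and without KO replicate 13 they were -1.19, -0.95 and -0.83 (adjusted p = 0.363, 0.363 and 0.396). Without WT replicates 10 and 11 they were -1.85, -1.55 and -1.49 (exact permutation test, adjusted p = 0.0315, 0.0315 and 0.0490). KO replicate 11 had the highest Otp of its 3 arrays, and WT replicates 10 and 11 the lowest of WT. Leaving these out favours a larger Otp difference, so these passes are no separate support for it.

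The order of the spread was the same in both sets, with Otp first, then Sim1, Sim2 and Arnt2. The SD of Sim1 was 0.36 in WT and 0.33 in KO replicates 1 to 10, above 96.2% and 94.1% of clusters. That of Sim2 was 0.18 and 0.20, above 70.4% and 73.7%. Without WT replicates 10 and 11 the order in WT was the same, with an SD of 0.25 for Sim1, 0.18 for Sim2 and 0.10 for Arnt2. For Sim1, Sim2 and Arnt2 too the difference in spread between the sets did not pass (permutation test of the mean absolute deviation, adjusted p = 0.871 for each), and the number of arrays limits this test.

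**Figure D4:**
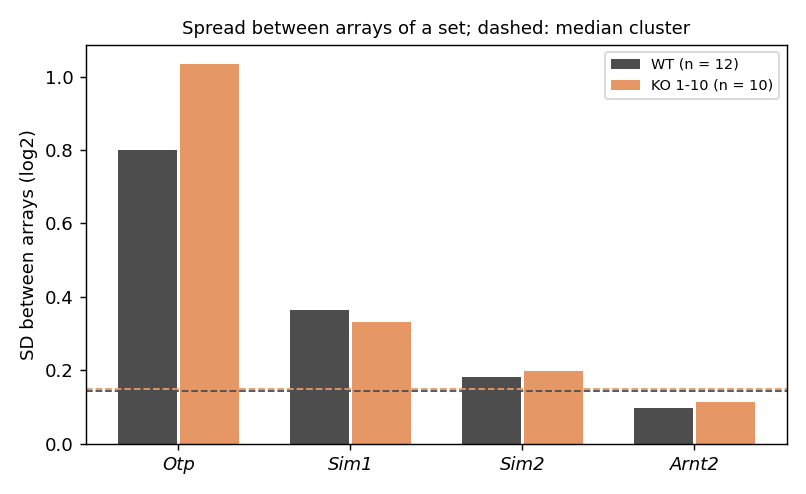
SD between arrays (bars, y axis from 0, log2 RMA level) of the 4 genes in WT (n = 12) and in KO replicates 1 to 10 (n = 10); dashed lines are the median SD of all 28940 clusters in the same set. Otp varies most in both sets (0.80 and 1.04) and Arnt2 lies below the median cluster in both (0.10 and 0.11).

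Other genes that varied across arrays as the 4 did were ranked by the lower of 2 values of Pearson's r, that in WT and that in KO replicates 1 to 10, over 18813 genes. The highest are chosen for being high, so they are named as a description. For Otp they were Meg3, an imprinted long noncoding RNA (0.86), Alx1, a paired-like homeobox gene of the facial mesenchyme (0.85), Ksr1, a scaffold of the RAS pathway (0.82), Smarcd3, of a chromatin remodelling complex (0.82), and Lekr1 (0.81). Meg3 was lower in KO by -0.61 ± 0.17 (limma, p = 0.00173, adjusted p = 0.190) and Smarcd3 by -0.34 ± 0.14 (p = 0.0267, adjusted p = 0.404), while Alx1, of the same homeobox class as Otp, stood at -0.03 ± 0.37. Olig2 ranked 98th for Otp.

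For Sim1 the nearest were Cacna1h, a T-type calcium channel (0.88), Prickle2, of planar cell polarity (0.87), Sparcl1, a matricellular protein (0.87), Cacna2d1, a calcium channel subunit (0.86), and Itm2b (0.85), with differences between KO and WT from -0.29 ± 0.28 (Cacna2d1) to 0.43 ± 0.26 (Sparcl1) and 0 of 5 with an unadjusted limma p below 0.05. For Sim2 they were Tmem184a (0.73), the olfactory receptor gene Olfr1098 (0.73), Tmem238 (0.72), the F-box gene Fbxo43 (0.72) and Mrap, an accessory protein of the melanocortin receptor (0.69). Tmem184a was higher in KO by 1.39 ± 0.36 (limma, adjusted p = 0.162), while Sim2 stood at -0.09. For Arnt2 they were the RNA-binding gene Qk (0.76), Sox11, a neuronal SOX gene (0.76), Cemip2 (0.73), the formin gene Daam1 (0.73) and the kinase gene Pdpk1 (0.72), whose differences lay between -0.17 and -0.04. Sim1 ranked 2536th in likeness to its partner Arnt2, and Sim2 ranked 18164th of 18813.

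The wider families and pathways of the 4 genes were read as 5 lists, with 60 distinct genes measured, of which 0 passed after adjustment in limma with the term and 10 had an unadjusted p below 0.05, beside 10.3% of all clusters. With genotype as the only term 14 of the 60 passed, beside 16.7% of all clusters. Of 22 bHLH-PAS genes, to which Sim1, Sim2 and Arnt2 belong, 2 had an unadjusted limma p below 0.05 (10.3% of all clusters), both higher in KO. They were Epas1, a hypoxia-inducible factor of endothelium (0.48 ± 0.18, p = 0.0112), and the dioxin receptor gene Ahr (0.32 ± 0.12, p = 0.0131). For Epas1 KO replicates 11 to 13 were all above the highest WT array, which together with the opposite case held for 1.15% of clusters, and the endothelial genes Cdh5, Pecam1, Kdr and Tek had differences of 0.29, 0.22, 0.12 and 0.07, whose part in this was not tested. The coactivator gene Ncoa3 stood at -0.12 ± 0.06 and the clock gene Per1 at -0.19 ± 0.10. The median of the family was -0.01, against 0.0052 for all clusters.

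Of 10 neuroendocrine lineage genes linked to Otp, Sim1 or Arnt2, 0 had an unadjusted limma p below 0.05, and their median difference was 0.05. The peptide genes Oxt (oxytocin, 3.35), Avp (vasopressin, 3.61) and Ghrh (3.47) were dim in WT at this age, and differed by 0.17 ± 0.10, 0.11 ± 0.12 and 0.14 ± 0.09. Crh (2.54) and Trh (3.69) were dim in WT too. The peptide gene Sst was not dim, at 6.42 ± 0.94 (SD, n = 12) in WT, and differed by 0.09 ± 0.53. Th, which encodes the first enzyme of dopamine synthesis, stood at -0.54 ± 0.32, with 1 of 3 KO arrays below every WT array. Pou3f2, which acts after SIM1 and ARNT2, was well expressed (8.54 ± 0.23, SD, n = 12) and differed by -0.16 ± 0.18. Of 6 genes reported to depend on SIM1 or SIM2, all 6 had negative differences, with a median of -0.16, and 0 had an unadjusted limma p below 0.05. Negative signs were common, since 13339 clusters had a more negative difference than Arnt2 (-0.0060) and 15600 a more positive one. The median of all clusters was 0.0052. The 6 genes were read on the same arrays, so their shared sign is not 6 separate results. A joint fall of these genes was not tested. The axon guidance receptor genes Plxnc1, Robo1, Robo2 and Robo3 stood at -0.19 ± 0.15, -0.12 ± 0.12, -0.08 ± 0.12 and -0.36 ± 0.42, and Foxb1 at -0.16 ± 0.17.

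Of 16 mammillary regulators, 15 were analysed here, 5 were lower and 1 was higher at an unadjusted limma p below 0.05, with a median of -0.16 (4.15% of all clusters were lower at that level). The lower ones were Foxb2 (-1.13 ± 0.21, adjusted p = 0.0546), Nkx2-4 (-0.72 ± 0.20), Barhl1 (-0.79 ± 0.22), Tbx3 (-1.10 ± 0.41) and Olig2, so that Otp had a difference of their size with an SE above those of all 5. The higher one was the LIM-homeobox gene Lmx1b (0.34 ± 0.13). The 5 lower genes and Otp are already listed as lower in the mutant in the paper that reported these arrays. The list was chosen with earlier results of these data known, so its count is no separate support. Of 16 paired-like homeobox genes, the class nearest to Otp, 10 were analysed here. Rax, of the eye field and hypothalamus, was lower by -1.27 ± 0.39 (p = 0.00333, adjusted p = 0.242), with 2 of 3 KO arrays below every WT array. Isx, which was near the lowest levels of the array in WT (2.99), stood at 0.32 ± 0.10 (p = 0.00296), Shox2 at -0.67 ± 0.39 and Prrx2 at 0.16 ± 0.16, and the median of the class was 0.02.

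**Figure D5:**
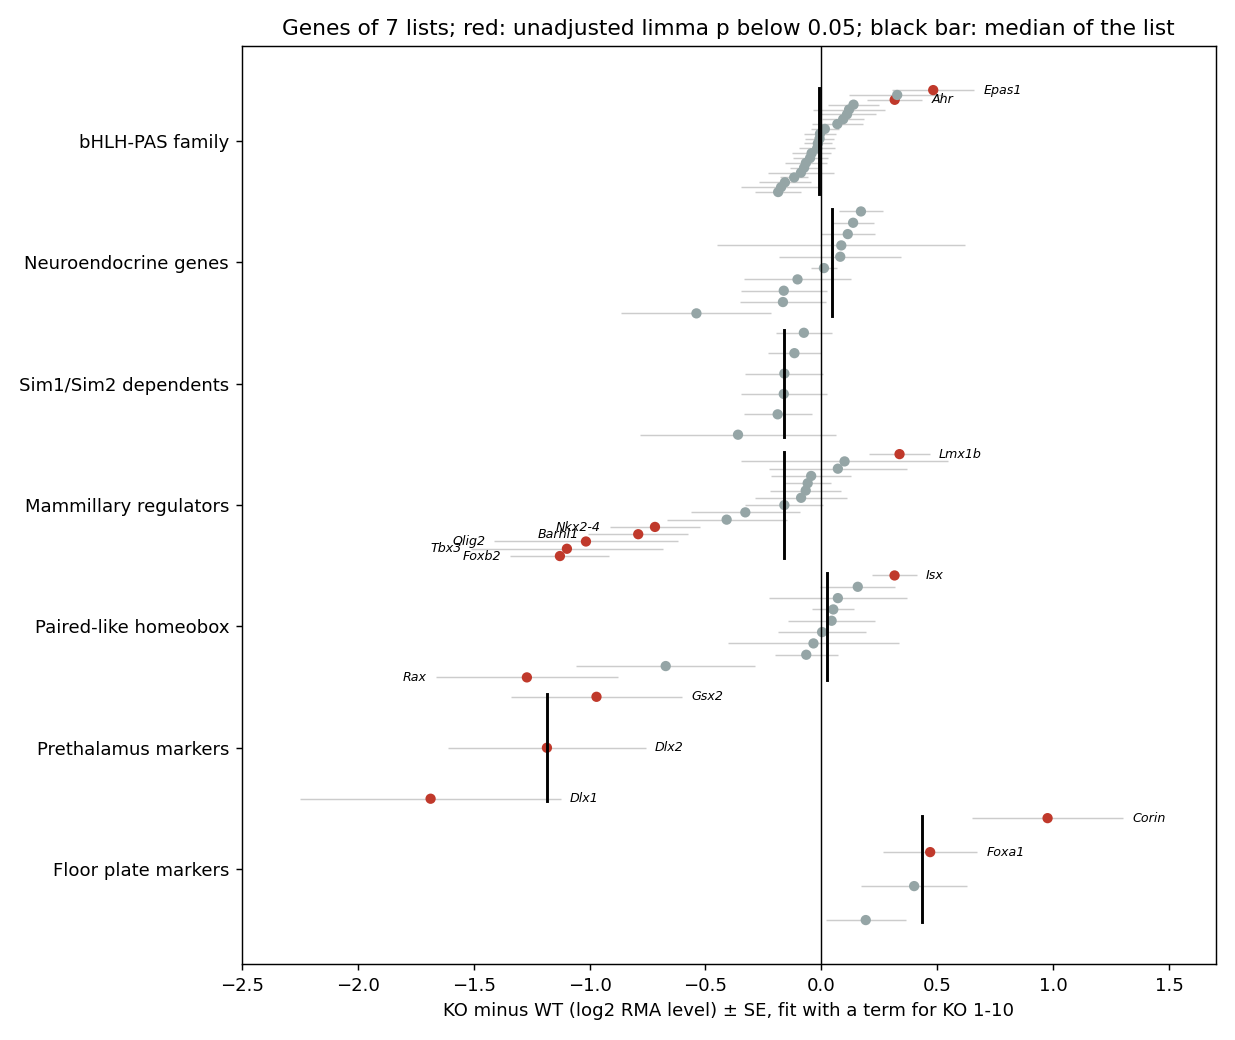
Difference between KO and WT (x axis, log2 RMA level, points) with its SE (bars) for the genes of the 5 lists, the prethalamus markers and the floor plate markers (rows), from limma with a term for KO replicates 1 to 10. Red points have an unadjusted p below 0.05 and black bars are list medians, which lie at -0.01 for the bHLH-PAS family, -0.16 for the mammillary regulators and -1.18 for the prethalamus markers.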

How the data were processed

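Transcript levels were measured on 25 arrays (13 KO, 12 WT), grouped by the genotype in the labels. The deposited values are log2 RMA (robust multiarray average) levels that the authors computed, with Affymetrix Expression Console 1.0, affy and R 2.7.0 named in their processing notes. An adjustment between array sets is not given in the sources used here. In deposited columns with cells above 14, which are no RMA levels and were treated as a score of unknown scale, those 14 cells were set missing (0 in the 4 genes). Of 35556 probe sets, 6616 without annotation were left out. Single-symbol clusters were matched to RefSeq genes (GRCm38.p6) by Entrez number (21185 of 21218), and the brightest stood for its gene.

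The 4 genes, the lists and the term for KO replicates 1 to 10 were chosen with earlier results of these data known. The fit (limma 3.58.1, R 4.3.3) held genotype and that term for each cluster, with Benjamini-Hochberg adjustment over 28940 clusters, two-sided, and called at an adjusted p below 0.05. Single values, pairs of genes, spread and correlations were tested by exact permutation or 100000 resamples, two-sided. Fits and tests were checked on simulated data. Genes were named by rule: the 4 genes, Lhx5, Foxb1, Olig2, Tbx3 and Pou3f2, the 4 lowest p-values of every list and the 5 genes nearest in likeness to each of the 4. Markers, Robo2, Robo3, Lmx1b, Crh, Trh and Sst were named after their values were seen. Alternatives were other normalizations, variance models, array weights, embryo sex, a replicate block, dim clusters left out and each array left out in turn. Leaving out WT replicates 10 and 11 together was chosen after seeing the data. Array number limits the precision of every difference. Tests and figures were made in Python 3.11.15 with scipy 1.17.1 and matplotlib 3.10.9.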

Additional observations from a re-analysis of the deposited data

Results flagged for a closer look

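Sim2 in KO replicates 1 to 10 had 1 array far from the rest. KO replicate 3 stood at 7.17, and the other 9 arrays lay between 7.56 and 7.86, so that the gap to the nearest array was 0.567 of the whole range. The same array had the lowest Otp of its set (3.73), the lowest Lhx5 (7.43) and the lowest caudal hypothalamus marker level (6.26, against a set median of 6.81). In all, 9 genes were examined in this way, and chance marks about 1 in 20 such groups.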

How the results depend on the processing

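The direction of the Otp difference held in all fits, and that of Sim1 too. With genotype as the only term Otp passed (-1.28, limma adjusted p = 0.00970), clusters called went from 7 to 4825 and listed genes called from 0 to 14. The p-values of that fit are too small, since it counts KO replicates 1 to 10 as further samples. Replicate numbers were shared by KO and WT but did not pair the samples: after set means were removed, same-number arrays correlated between -0.335 and 0.428, with values above 0.1 for 4 of 12 numbers, and 1 sample correlated best with its own number. In a fit with a replicate block and genotype the only other term, Otp (-1.23, adjusted p = 0.0143) and Sim1 (0.31, adjusted p = 0.0253) passed and 3637 clusters were called. This fit too counts KO replicates 1 to 10 as further samples, so its p-values are too small. With the block and the term for KO replicates 1 to 10, Otp stood at -0.16 (adjusted p = 0.975), Arnt2 at 0.0095 and 0 clusters were called. The estimates of that fit compare only KO replicates 11 and 12 with the WT arrays of the same number. KO replicate 13 has no WT array of its number and drops out, and WT replicate 11 was low in Otp (5.26). Clusters called numbered 1 with quantile normalization repeated (where Arnt2 stood at 0.0073), 12 with arrays centred on their medians, 3 with ordinary variance, 30 with array weights, 4 with dim clusters left out and 36 at an adjusted p below 0.1.

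With each array left out in turn, clusters called ranged from 0 (without KO replicate 13) to 26 (without WT replicate 10). The differences ranged from -1.79 to -0.95 for Otp (exact p from 0.0110 to 0.132), 0.24 to 0.48 for Sim1, -0.32 to 0.17 for Sim2 and -0.0228 to 0.0067 for Arnt2. For pairs they ranged from -2.28 to -1.19 (Otp and Sim1), -1.97 to -0.78 (Otp and Sim2), -1.78 to -0.95 (Otp and Arnt2) and -0.31 to 0.18 (Sim2 and Arnt2); the pairs of Otp with Sim1 and with Arnt2 also passed without any 1 of WT replicates 10, 11 and 12. Without both WT replicates 10 and 11 the pairs of Otp with Sim1 (-1.85), Sim2 (-1.49) and Arnt2 (-1.55) passed. These 2 arrays had the lowest Otp of WT, so this choice favours a pass and is no separate support. The difference in mean absolute deviation between KO replicates 1 to 10 and WT ranged from 0.121 to 0.332 for Otp (0.245 with all arrays), -0.0184 to 0.0709 for Sim1, -0.0633 to 0.0036 for Sim2 and -0.0132 to 0.0209 for Arnt2. As a log2 variance ratio it was -0.278 for Sim1 and 0.257 for Sim2. The causes were not tested. No relation within a set passed after adjustment with Spearman's rho, centred arrays, embryo sex removed or 2 arrays left out (6, 6, 9 and 5 at an unadjusted permutation p below 0.05). Each gene had 1 single-symbol cluster, so a mean over clusters could not be tried.

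Every difference rests on the 3 KO arrays of the 15-array set. Whether these were processed together with the WT arrays is not stated in the sources used here. A batch difference between these KO arrays and WT, if present, cannot be told apart from genotype. The exact test cannot give a p below 0.0022.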

Other observations

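Genes of other cell types varied with the 4 genes in part, all as descriptions across arrays. Sim2 was higher where 6 mesenchyme and neural crest genes were higher in KO replicates 1 to 10 (r = 0.77), while in WT r was -0.25, or 0.17 without WT replicates 10 and 11, and the difference between the sets was not tested. Sim2 was lower where 5 neural progenitor genes were higher in WT (r = -0.61, and -0.84 without WT replicates 10 and 11), while r was -0.22 in KO replicates 1 to 10. Arnt2 was higher where young neuron genes were higher (r = 0.71 in WT and 0.46 in KO replicates 1 to 10) and lower where 4 other markers of the caudal hypothalamus were higher (r = -0.62 and -0.53), and Sim2 ran the other way with those 4 (r = 0.60 and 0.72). Sim1 was higher where 4 floor plate and ventral midbrain genes were higher (r = 0.47 and 0.72), and their mean was 7.48 in WT and 7.98 in KO replicates 11 to 13.

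Of the marker lists, 0 genes passed after adjustment in limma with the term. At an unadjusted p below 0.05, 3 of 3 prethalamus genes, 2 of 7 caudal hypothalamus genes (Otp and Rax), 1 of 2 telencephalon genes (Lhx2) and 1 of 3 eye genes (Pmel) were lower in KO, and 2 of 4 floor plate genes (Corin and Foxa1) were higher. Of all clusters, 4.15% were lower at that level and 10.3% differed in either direction. Otp is itself 1 of the 4 genes followed here. The lists of neural progenitor (5 genes), young neuron (3), hindbrain and spinal cord (5), mesenchyme and neural crest (6), somite and muscle (4), endothelium (4), erythroid (3), surface ectoderm (4) and macrophage (3) genes had 0 in either direction.

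Arrays were told apart by whether Xist or the Y-linked gene Eif2s3y had the higher level. In WT, Otp averaged 6.60 on the 8 arrays with the higher Xist and 6.36 on the 4 with the higher Eif2s3y, and Sim1 8.33 and 8.08. In KO replicates 1 to 10, Otp averaged 5.64 (n = 3) and 5.07 (n = 7), and Sim1 8.68 and 8.52. With embryo sex, read in this way, as a further term the Otp difference was -1.28 (limma, adjusted p = 0.406).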
